A study of Homo sapiens with 6 samples.

Results

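Genes that attach chromosomes to the spindle, delay anaphase until attachment is complete and then release it were followed in A549 cells, an established human lung adenocarcinoma line, after a short exposure to cisplatin. The set was defined by 10 gene symbols, CENPA, CENPE, CENPF, MAD2L1, BUB3, CDC20, PTTG1, UBE2C, BIRC5 and FOXM1. Of these, 8 had a probe set that the platform annotation gives to them alone, 1 probe set for each gene, among 7713 genes with such a probe set. All 8 were bright enough to be tested, among 5816 tested genes in all. CENPA shared its probe set with SLC35F6, so that probe set is described but not counted, and FOXM1 was not analysed here.

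The study held 6 arrays of messenger RNA, 3 from cells given 50 µM cisplatin for 1 hour and 3 from cells that spent that hour in ordinary growth medium. Every culture was washed and kept for a further 10 hours without drug before RNA was taken. The groups differ in cisplatin, a platinum compound that crosslinks DNA, and share the cell line, medium and times. Each group came from 3 experiments that the submitters call independent, all in 1 cell line.

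In a dividing cell, centromere proteins build the kinetochore, the plate on each chromosome to which spindle fibres attach. Kinetochores that lack attachment send out the checkpoint proteins MAD2 and BUB3, which hold CDC20 back from the anaphase-promoting complex, a ubiquitin ligase. Once CDC20 is free, the complex and its partner enzyme UBE2C mark securin (PTTG1) for destruction, and the sister chromatids part. Most of these genes are transcribed in the G2 phase and mitosis, so in a culture their mRNA also follows the share of cells in those phases. In bulk RNA, fewer cells in these phases and less RNA per cell cannot be told apart.

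After cisplatin, 7 of the 8 genes were lower on average and 1, MAD2L1, was higher, but 0 of the 8 passed limma with Benjamini-Hochberg adjustment over all 6559 tested probe sets, of which 0.29% passed in either direction and 0.0762% as lower. CDC20, PTTG1 and UBE2C, which act at the step into anaphase, had 3 cisplatin values below 3 control values. Of all tested probe sets, 3.57% had groups apart in that direction and 11% in either direction. BUB3 and MAD2L1, of the checkpoint, had overlapping groups and the smallest changes of the 8. Of 9 further checkpoint and passenger genes that were tested, 5 were lower and 4 higher. The sizes were unequal. The 5 had log2 folds (cisplatin minus control) from -0.66 to -0.01, with BUB1B at -0.30 and TTK at -0.27, and the 4 had 0.00 to 0.08. At an unadjusted p under 0.05 there were 3 of 8 genes, all lower, where 5.03% of all tested probe sets reached that level and 1.63% as lower. The 8 genes were chosen with earlier results of these data known, so their counts are not independent of those results. The median log2 fold (cisplatin minus control, on log2 of intensity plus an offset of 11.8) was -0.34 over the 8 genes and 0.04 over all tested genes, of which 39.4% were lower.

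The first principal component held 39.9% of the variance and placed control 1 at -14.4 and cisplatin 2 at -17.1, with the remaining arrays between 1.69 and 12.4. RNA integrity was read from ACTB control probe sets as a 3′/5′ signal ratio. It was 2.20 on control 1, 2.67 on cisplatin 2, 2.94 to 2.98 on control 2, control 3 and cisplatin 3, and 3.67 on cisplatin 1. Control 1 and cisplatin 2, which stood apart on the component, thus had the lowest ratios. Whether RNA integrity shaped the component was not tested. The 75th percentile of intensity lay between 191.1 and 213.9 on the 6 arrays. Of 12 epithelial and A549 markers, all tested, mean intensities ran from 33.0 for EPCAM to 5872 for AKR1B10, and 0 passed. Of 12 markers of blood, endothelial and stromal cells, 8 were bright enough to be tested, mean intensities ran from 1.41 for COL3A1 to 222 for ACTA2, and 0 passed. The summed intensity of these 12 was 596 to 627 on control arrays and 663 to 743 on cisplatin arrays, and its part in the results was not tested. ACTA2, the brightest, weighs most in this sum and had a log2 fold of 0.47 (adjusted p = 0.664 in limma). It was the only 1 of the 8 with an unadjusted p under 0.05. Of the 8, 5 were higher and 3 lower.

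**Figure D1:**
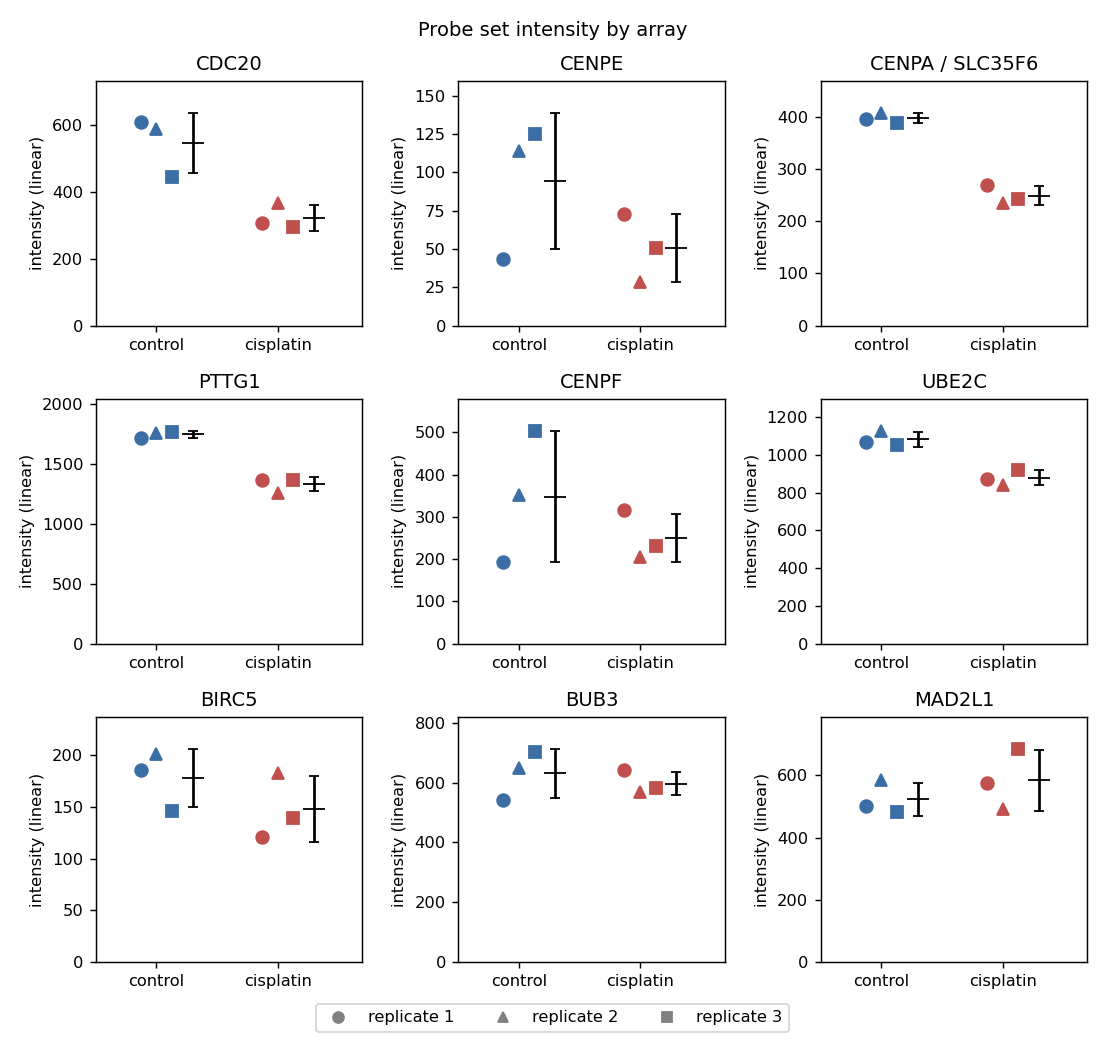
Deposited intensity (linear scale, y axes from 0) of the 8 genes and of the probe set paired with both CENPA and SLC35F6, for 3 control (blue) and 3 cisplatin (red) arrays; marker shapes are replicate numbers and black bars are mean ± SD. The red points lie below all blue points for CDC20, PTTG1, UBE2C and the CENPA / SLC35F6 probe set, and the groups overlap for the other 5.

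CDC20, the activator that brings substrates to the anaphase-promoting complex, had intensities of 609, 586 and 444 on control 1 to 3 and of 306, 365 and 294 on cisplatin 1 to 3. The lowest control array, control 3, was still above the highest cisplatin array, cisplatin 2. The mean went from 546 ± 89.4 to 322 ± 38.2 (SD, n = 3 each), 41.1% lower. Its log2 fold of -0.74 was the lowest of the 8 genes, with a 95% interval of -1.06 to -0.41, an SE of 0.15 and an adjusted p of 0.120 in limma. The interval of CDC20 excludes 0, but the gene did not pass over the whole table.

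PTTG1 encodes securin, which keeps separase inactive until anaphase. Its intensities were 1713, 1757 and 1764 on the control arrays and 1361, 1260 and 1365 on the cisplatin arrays. The 3 values of each group lay close together, with a coefficient of variation of 1.60% in control and 4.50% in cisplatin, and the groups did not overlap. The mean was 23.8% lower (1745 ± 27.9 to 1329 ± 59.7), with a log2 fold of -0.39 (95% interval -0.55 to -0.23, SE 0.07). The adjusted p of PTTG1 was 0.0816, the lowest of the 8 genes, and was 0.0491 after quantile normalization. The name of its probe set ends in _x_at, which on this platform marks probes that can also match related sequences, and the close relative PTTG2 had a log2 fold of 0.05 on a dim probe set of its own.

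UBE2C, the ubiquitin-conjugating enzyme that starts chains on substrates of the complex, read 1066, 1126 and 1054 on the control arrays. It read 874, 840 and 919 on the cisplatin arrays. All cisplatin values were below all control values, and the coefficients of variation were 3.55% and 4.55%. The mean was 18.9% lower (1082 ± 38.4 to 878 ± 40.0), with a log2 fold of -0.30 (95% interval -0.49 to -0.11) and an adjusted p of 0.519. Groups that do not overlap were found for 3 of the 8 genes, all lower, where 11% of all tested probe sets were separated and 3.57% in that direction.

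The array values of CENPE and CENPF were more variable. CENPE is a kinesin that carries chromosomes along spindle fibres from the kinetochore. Its probe set was dim, with 43.7, 114 and 125 on the control arrays and 73.1, 28.4 and 50.8 on the cisplatin arrays. Control 1 lay among the cisplatin values. The intensities of CENPE and of BIRC5 lay in the range of mean intensity of the markers of cell types foreign to the culture, whose top is ACTA2 at 222. This range reaches above the 75th percentile of intensity on every array (191.1 to 213.9). Lying in it therefore does not set CENPE or BIRC5 apart from most probe sets. The log2 fold of CENPE was -0.72, close to that of CDC20, but its 95% interval ran from -1.54 to 0.09 (adjusted p = 0.999).

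CENPF, a large protein of the outer kinetochore that accumulates in G2, read 192, 351 and 502 on the control arrays. On the cisplatin arrays it read 315, 205 and 231. Control 1 was the lowest of all 6 arrays and cisplatin 1 lay between control 1 and control 2. The control coefficient of variation was 44.5%, against 22.9% with cisplatin, and the log2 fold of -0.38 had a 95% interval of -1.04 to 0.28 (adjusted p = 0.999). CENPE and CENPF were both lowest, within their group, on the arrays that stood apart, control 1 and cisplatin 2. Without both arrays the log2 fold was -0.85 for CENPE (adjusted p = 0.122) and -0.62 for CENPF (adjusted p = 0.410). With 1 array left out, that of CENPF was -0.74 without control 1, -0.26 without cisplatin 2 and -0.07 without control 3, so single arrays set its size. That of CENPE was -1.14 without control 1, -0.49 without control 3 and -0.44 without cisplatin 2.

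The probe set paired with CENPA, the histone H3 variant that marks the centromere, and with SLC35F6, a solute carrier gene, read 397, 408 and 389 on the control arrays. It read 270, 235 and 243 on the cisplatin arrays. Its groups were widely separated, with a mean of 398 ± 9.17 against 249 ± 18.3. The log2 fold was -0.65 (95% interval -0.90 to -0.40, SE 0.11, adjusted p = 0.0589), and 5 of 20 alternative settings took it past the threshold. Which of the genes the signal came from was not tested.

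MAD2L1, which encodes the checkpoint protein MAD2, read 501, 584 and 483 on the control arrays and 575, 491 and 685 on the cisplatin arrays. The groups overlapped, and cisplatin 3 was the highest array. MAD2L1 had the only log2 fold above 0 of the 8 genes, 0.15, with a 95% interval of -0.16 to 0.46 (adjusted p = 0.999). It was 0.03 without cisplatin 3, 0.09 without control 3, 0.23 without control 2 and 0.26 without cisplatin 2. BUB3, which brings checkpoint kinases to the kinetochore, read 542, 648 and 702 on the control arrays and 641, 570 and 582 on the cisplatin arrays. Its log2 fold was -0.07, and the 95% interval of -0.34 to 0.19 excludes a change as large as the estimate for PTTG1. Without control 3 it was 0.01, and without control 1 it was -0.17.

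BIRC5 encodes survivin, a member of the chromosomal passenger complex that corrects faulty attachments and an inhibitor of apoptosis protein. Its intensities were 186, 201 and 146 on the control arrays and 121, 183 and 139 on the cisplatin arrays. Cisplatin 2 reached the control range, and control 3 lay between cisplatin 3 and cisplatin 2. The log2 fold of -0.25 had a 95% interval of -0.65 to 0.14 (adjusted p = 0.999). It was -0.13 without cisplatin 1, -0.38 without control 3 and -0.41 without cisplatin 2. Of the wider inhibitor of apoptosis family with its antagonist DIABLO, 3 genes were tested and 0 passed; BIRC2 had a log2 fold of 0.15, XIAP -0.06 and DIABLO -0.03.

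**Figure D2:**
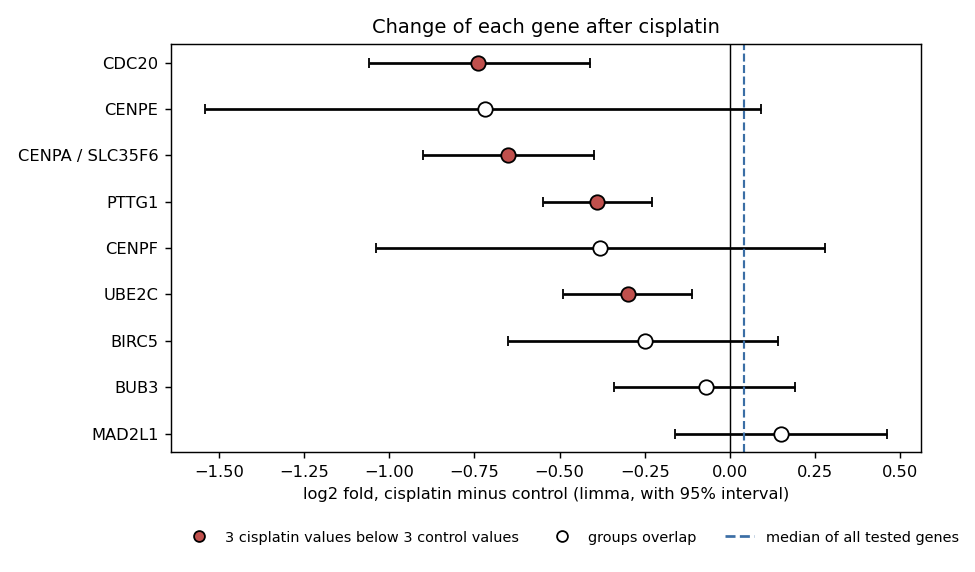
Log2 fold (x axis, cisplatin minus control) with its 95% interval from limma for each gene, ordered from lowest to highest; filled points have groups that do not overlap, and the dashed line is the median of all tested genes, 0.04. The intervals of CDC20, PTTG1, UBE2C and the CENPA / SLC35F6 probe set lie below 0, and those of the other 5 include 0.

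In order of log2 fold the genes ran CDC20, CENPE, PTTG1, CENPF, UBE2C, BIRC5, BUB3 and MAD2L1. The intervals of neighbours in this order overlapped throughout. The widest intervals were those of CENPE and CENPF and the narrowest those of PTTG1 and UBE2C. For CDC20, CENPE and CENPF the interval reached a log2 fold of -1, a halving, and for the other 5 genes it did not. All 8 directions held under the 3 other scalings between arrays, while the share of all tested probe sets that were lower moved from 39.5% to 50.2% with quantile normalization and 58.7% with arrays centred on the median.

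Seen array by array, the genes did not move as a block. On control 2 all 8 genes were above their own mean, and on cisplatin 2 and cisplatin 3 there were 7 of 8 below it. On control 1 and cisplatin 1 the count below the mean was 4 of 8 each. CDC20 was 0.53 above its mean on control 1, in log2 units, where CENPF was 0.53 below and CENPE 0.47 below theirs (deviations of -0.53 and -0.47). BIRC5 was above its mean on cisplatin 2 (0.18), where CENPE had its lowest value (-0.93). With the ACTB 3′/5′ ratio as a covariate, CENPE passed (log2 fold -1.22, adjusted p = 0.00624) and so did PTTG1 (-0.42, adjusted p = 0.0257). With array weights CDC20 (-0.79, adjusted p = 0.0144) and PTTG1 (-0.37, adjusted p = 0.0198) passed, and CENPE did not (-0.82, adjusted p = 0.295). Over the whole table of 6559 tested probe sets, the covariate fit called 47 and the fit with array weights 44, against 19 in the main fit.

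**Figure D3:**
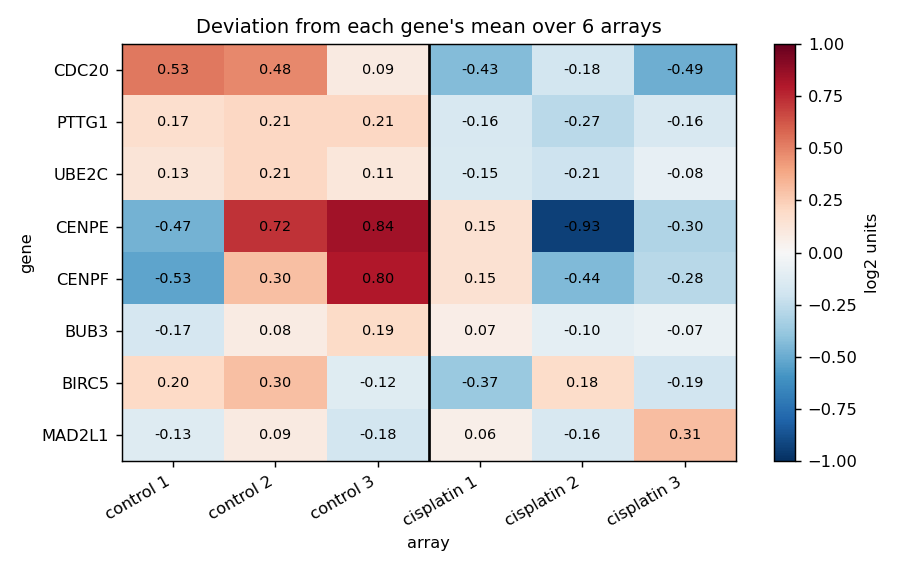
Log2 deviation of each gene (rows) from its own mean over the 6 arrays (columns); red is above and blue below the mean, and the line divides control from cisplatin. The top 3 rows, CDC20, PTTG1 and UBE2C, change sign at the line, while CENPE and CENPF are below their mean on control 1, at -0.47 and -0.53, and above it on cisplatin 1, at 0.15 each.

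Genes that are known to be transcribed in G2 and mitosis often carry a CHR element, TTTGAA, near the start site, with CCAAT boxes, bound by NF-Y, upstream of it. RefSeq promoters (GRCh38.p14, 250 bases before to 50 after the start) were listed for 6 of the 10 symbols, CENPA, CENPE, CENPF, MAD2L1, CDC20 and PTTG1. The 250 bases before the start are shown for CDC20 and PTTG1, which had groups that did not overlap, and for MAD2L1, the gene that was higher. Capitals mark TTTGAA and CCAAT on either strand (TTCAAA and ATTGG on the other).
CDC20, chr1:43358731-43358980, plus strand: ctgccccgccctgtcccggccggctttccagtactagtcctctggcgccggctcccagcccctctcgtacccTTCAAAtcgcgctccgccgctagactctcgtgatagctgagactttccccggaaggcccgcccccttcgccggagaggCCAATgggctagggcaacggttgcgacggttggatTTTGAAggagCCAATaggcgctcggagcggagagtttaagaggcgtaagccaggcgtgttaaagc
PTTG1, chr5:160421605-160421854, plus strand: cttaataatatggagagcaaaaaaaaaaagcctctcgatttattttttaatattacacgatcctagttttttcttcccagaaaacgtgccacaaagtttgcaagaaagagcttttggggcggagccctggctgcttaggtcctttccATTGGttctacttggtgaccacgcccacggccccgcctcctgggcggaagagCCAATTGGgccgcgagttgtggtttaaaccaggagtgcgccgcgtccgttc
MAD2L1, chr4:120066849-120067098, minus strand: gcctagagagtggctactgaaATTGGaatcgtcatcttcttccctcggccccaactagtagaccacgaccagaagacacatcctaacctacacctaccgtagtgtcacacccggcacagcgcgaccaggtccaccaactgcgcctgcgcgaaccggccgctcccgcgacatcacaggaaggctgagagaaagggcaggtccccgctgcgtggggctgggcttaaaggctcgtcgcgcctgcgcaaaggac

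In CDC20 the TTTGAA begins 65 bases before the start, between CCAAT matches that begin 100 and 55 bases before it, with a further match on the other strand 178 bases before the start. PTTG1 held CCAAT matches, of which those at 51 and 48 bases overlap on opposite strands, and no TTTGAA at either of its 2 listed starts. TTTGAA on the gene's strand was found in 4 of the 6 promoters, shown with 10 bases before it and up to 10 after, as far as the listed promoter goes.
CDC20, chr1:43358906-43358931, plus strand: acggttggatTTTGAAggagccaata
CENPA, chr2:26786028-26786053, plus strand: gagcgagcgaTTTGAAcgcgagcggc
CENPF, chr1:214603225-214603244, plus strand: ctgcgggcagTTTGAAttag
MAD2L1, chr4:120066809-120066834, minus strand: cgtcgttactTTTGAAacgcttggcg

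Those of CENPF and MAD2L1 lie after the listed start, at bases 41 and 25. TTTGAA and CCAAT occurred together in 4 of 6 promoters, which include MAD2L1, against 8.20% of 4790 tested genes with a listed promoter. The pair was counted at any distance and on either strand. In MAD2L1 the only CCAAT match begins 229 bases before the start, far from the TTTGAA at base 25 after it. Singly, TTTGAA was in 14.8% and CCAAT in 44.4% of these 4790 genes, and in 4 and 5 of the 6. An E2F-like match, TTCCCGC or TTGGCGC, was in 1 of 6 (CENPA; 16.8% of tested genes) and a forkhead-like TAAACA in 1 of 6 (CENPE; 11.0%). These matches overlap neither TTTGAA nor CCAAT in those promoters and describe letters only.

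Genes of the same machinery were examined through 6 further lists with 57 tested genes between them. In limma 0 of the 57 passed in either direction, and 4 had an unadjusted p under 0.05, all lower. Of all tested probe sets 0.29% passed, 5.03% had such an unadjusted p and 1.63% had it as lower. The lists were chosen with earlier results of these data known, so the count of 4 is not independent of them. The median log2 fold of the 57 genes was -0.03. With all arrays the medians of the 6 lists were nearer to 0 than that of the 8 genes, but those of the spindle checkpoint and cohesin lists moved with single arrays. Without control 1 the median was -0.39 for the spindle checkpoint list, -0.38 for the cohesin list and -0.36 for the 8 genes.

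Of 9 tested kinetochore and centromere genes 0 passed, 6 were higher and 3 lower, and the median log2 fold was 0.06 (-0.08 without control 1). ZWINT, an outer kinetochore protein, read 1435, 1392 and 1593 on the control arrays and 1654, 1732 and 1607 on the cisplatin arrays, with a log2 fold of 0.18 (adjusted p = 0.977). Its groups did not overlap and lay in the direction opposite to CENPE and CENPF. NDC80, which binds spindle fibres directly, had -0.16, and DYNLT3, a dynein light chain, 0.20. Among 9 spindle checkpoint and passenger genes 0 passed, and the median was -0.01. That median was -0.31 without cisplatin 1, -0.22 without control 1 and cisplatin 2, -0.30 with the 3′/5′ covariate and -0.27 with array weights. AURKB, the kinase of the passenger complex and partner of survivin, read 423, 387 and 237 on the control arrays and 130, 337 and 210 on the cisplatin arrays. Like BIRC5 it overlapped through control 3 and cisplatin 2, with a log2 fold of -0.66 (95% interval -1.35 to 0.04). The checkpoint kinases BUB1B (-0.30) and TTK (-0.27) also overlapped, with an adjusted p of 0.999 for each.

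Of 11 tested genes of the anaphase-promoting complex and its regulators 10 were lower, 0 passed and the median was -0.07. UBE2S, which elongates the chains that UBE2C begins, stood below the rest, with 666, 471 and 376 on the control arrays and 190, 359 and 298 on the cisplatin arrays. Its groups did not overlap, and its log2 fold was -0.82 (95% interval -1.37 to -0.26, adjusted p = 0.584). The inhibitor FBXO5 had -0.23 and the subunit gene ANAPC2 -0.27, while the subunit genes CDC16, CDC23 and CDC27 lay between -0.09 and -0.05. Of 11 cohesin, condensin and separase genes 0 passed and 6 were lower, with a median of -0.01. That median was -0.24 without cisplatin 1, 0.11 without control 2, -0.43 with the 3′/5′ covariate and -0.28 with array weights. TOP2A, which untangles sister chromatids, had -0.29, the cohesin gene STAG1 -0.25 and ESPL1, which encodes the separase that securin holds, -0.13.

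Of 14 tested genes in the list of G2/M transcription regulators 0 passed and 9 were lower, with a median of -0.04. The 3 with an unadjusted p under 0.05 are not transcription factors but a kinase and phosphatases that drive entry into mitosis. All 3 were lower, where 1.63% of all tested probe sets had such a p as lower. PLK1, the kinase, read 271, 235 and 185 on the control arrays and 97.5, 150 and 117 on the cisplatin arrays, with a log2 fold of -0.86 (95% interval -1.28 to -0.45, adjusted p = 0.187). CDC25B had -0.39 (adjusted p = 0.245) and CDC25C -0.40 (adjusted p = 0.733). The groups of all 3 did not overlap, where 3.57% of all tested probe sets had groups apart as lower and 11% in either direction. As the 3 were picked by a low unadjusted p, this is no separate finding. MYBL2, a transcription factor that works with FOXM1 on G2/M promoters, had 0.02.

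**Figure D4:**
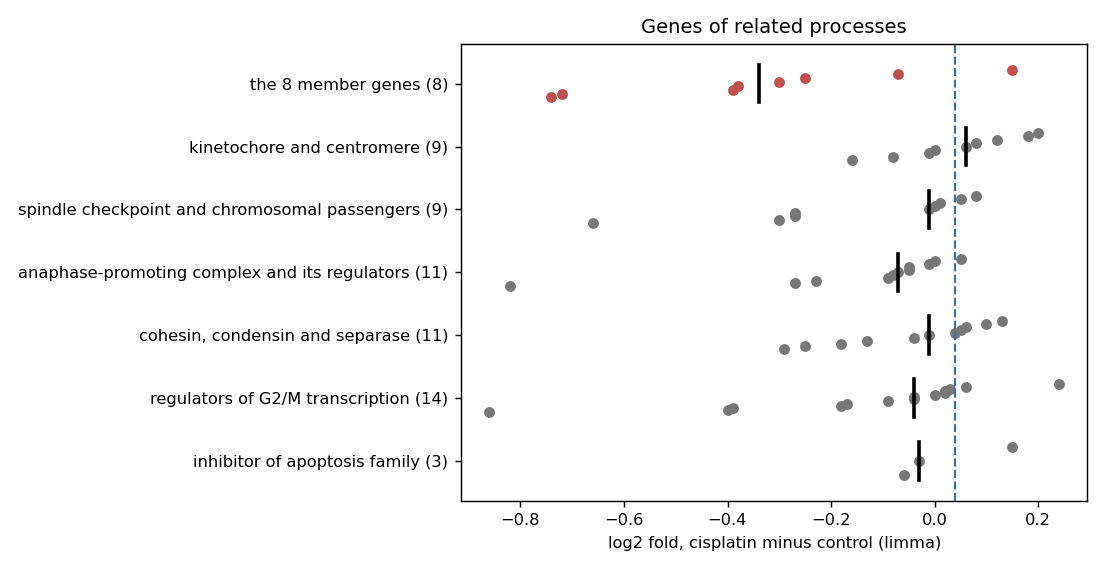
Log2 fold (x axis, cisplatin minus control) of every tested gene in the set of 8 (red) and in 6 related lists (grey), with the number of genes in brackets; black bars are medians and the dashed line is the median of all tested genes, 0.04. With all 6 arrays the 8 genes have a median of -0.34 and the 6 lists medians between -0.07 and 0.06, which for the spindle checkpoint and cohesin lists became -0.39 and -0.38 without control 1; in the plot, UBE2S (-0.82), PLK1 (-0.86) and AURKB (-0.66) lie far below the medians of their lists.

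For scale, CDKN1A, which encodes the inhibitor p21, had the largest log2 fold of all tested genes (2.42), and AURKA and CCNB2, which act in mitosis, passed with -0.73 and -0.63. The log2 fold of CDC20 was as low as that of AURKA, with an SE of 0.15 against 0.09. Among 5808 other tested genes, those whose deviations over the 6 arrays lay nearest to the median of the 8 genes were HMGA2, ABCC4, PRKD1, CKS2 and LMO4, with root mean square differences of 0.031 to 0.053 log2 units against a median of 0.25. CKS2, a small partner of the mitotic CDK, read 1341, 1646 and 1611 on the control arrays and 1300, 1197 and 1285 on the cisplatin arrays. Its log2 fold was -0.27 (adjusted p = 0.734). HMGA2 had -0.29 and ABCC4 -0.27, and 0 of the 5 passed in limma. The groups of all 5 did not overlap and were lower with cisplatin. As the 5 were picked by likeness to the 8 genes, this is no separate finding. Within the set UBE2C (0.08) and PTTG1 (0.09) lay nearest to the median profile and CENPE (0.50) farthest from it.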

How the data were processed

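The series table deposited by the authors holds linear probe set intensity values. They ran from -512.3 to 9153, with 1.37% at or below 0, so some signal had been subtracted before deposit, of a kind not stated. The summarisation software and any scaling by the authors were not given in the sources used here. Values at or below 0 were set to 0, an offset of 11.8 (10th percentile of positive values) was added and log2 taken. The 75th percentiles spanned 0.15 in log2, under a limit of 0.3, so arrays were used as deposited. Without 47 control probe sets, 8746 remained, and the 6559 whose mean log2 reached the 25th percentile were tested with limma 3.58.1 (R 4.3.3; lmFit, eBayes with intensity trend, two-sided, Benjamini-Hochberg at 0.05, tested on simulated data). An exact test of 3 against 3 cannot go below 0.1 and was not used. Precision is limited by the number of arrays.

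The platform annotation gave 7840 probe sets a single symbol, 388 several and 518 none; RefSeq changed 0 symbols. A gene was represented by its brightest tested probe set. The member genes and all lists were chosen with earlier results of these data known. Named genes were all members, the 3 lowest unadjusted p in each list, the 5 nearest profiles, and CDKN1A, AURKA and CCNB2; CDC16, CDC23, CDC27, MYBL2 and PTTG2 were added after their values were seen. Protein sequences were not used here. Alternatives covered scaling, offset, filter, variance prior, replicate block, left-out arrays, the 3′/5′ ratio as a covariate, array weights and the mean over probe sets. Plots were made in Python 3.11.15 with matplotlib 3.10.9.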

Additional observations from a re-analysis of the deposited data

How the results depend on the processing

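Over 20 alternatives CDC20 (-0.87 to -0.64), PTTG1 (-0.46 to -0.35), UBE2C (-0.37 to -0.27), BIRC5 (-0.41 to -0.13), CENPE and CENPF (-0.76 to -0.07) stayed lower and MAD2L1 (0.03 to 0.27) higher; BUB3 ranged from -0.17 to 0.01 when 1 array was left out, with the higher value without control 3, and was lower in the others. Of the 8 genes, 1 passed with quantile normalization, 2 with the 3′/5′ covariate, 2 with array weights and 0 under the other 17; the cause was not tested. Fits without 1 array gave 0 member calls and a median log2 fold of -0.36 to -0.30. Against 19 probe sets called over the whole table, 8 passed without the intensity trend, 11 after centring each array on its median, 47 with the covariate, 44 with array weights and 6 to 18 without 1 array. Without control 1 and cisplatin 2 together 20 passed and 0 of the 8 genes. Array weights called 1 gene among the G2/M transcription regulators. With the replicate number as a block, 5 probe sets and 0 of the 8 genes passed; equal numbers are not stated to share an experiment, and the deviations of arrays with equal numbers correlated at -0.562, -0.312 and -0.115. CENPE, with a dim probe set, had log2 folds between -1.22 (with the 3′/5′ covariate) and -0.44 (without cisplatin 2). It had -0.86 with no offset and -0.58 with an offset of 32, and the part of background was not tested.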
